A study of Mus musculus with 10 samples.

Results

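The genes described here are 33 erythroid genes, chosen by name and without the globins, of which 32 were rows of the gene table of 17404 genes. They were read as 17 terminal erythroid genes, 6 heme enzymes that stem cells also use and 9 genes shared with stem cells or other lineages, and Ahsp was not analysed here. RNA-seq was performed on LT-HSCs, long-term repopulating stem cells of the blood, which were sorted from fetal livers of C57BL/6 mouse embryos at E14.5. The 6 KO libraries came from Tnfrsf11aCre; Spi1f/f embryos and the 4 WT libraries from Tnfrsf11a+/+; Spi1f/f controls, so the embryos of both groups carried floxed alleles of Spi1, the gene of the myeloid factor PU.1. The Cre is driven by Tnfrsf11a, a gene expressed in pre-macrophages, and was used to obtain embryos that lack macrophages; the LT-HSCs sequenced are not the intended target of the deletion. Each library is named by the number its sample carries in the labels.

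Red cells are made through erythroid progenitors and erythroblasts, which in the fetal liver mature around macrophages. Erythroblasts build a membrane of anion exchanger and Rh proteins fixed to a spectrin skeleton, take up iron through the transferrin receptor and make heme for hemoglobin. Heme synthesis starts in the mitochondrion with aminolevulinate synthase, passes through the cytosol and ends in the mitochondrion, where ferrochelatase inserts the iron. Most cells use these enzymes at a low rate, with Alas1 for the first step, whereas erythroblasts use Alas2.

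Library totals ranged from 5315435 counts on genes (KO 15406) to 30941726 (KO 15412). Spi1 was at 9.10 to 101 CPM (counts scaled to the library size) in KO and at 6.22 to 50.1 CPM in WT, with a log2 fold change of 1.31 ± 0.69 (SE) and an adjusted p of 0.337 by edgeR's quasi-likelihood test, so this gene does not tell the groups apart in LT-HSCs. All 12 LT-HSC markers were detected in every library, with a summed level of 608 to 1936 CPM in KO and 473 to 727 CPM in WT. The globin genes took 0.296% to 12.4% of the counts of KO libraries and 0.124%, 2.44%, 23.5% and 0.428% of WT 15416, WT 15417, WT 15418 and WT 15420. WT 15418 stood apart by this share, and fold changes without it are given beside the members it moved most. In bulk samples, fewer cells of a type and less RNA per cell cannot be told apart.

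Of the 32 members, 31 had a fitted log2 fold change (KO against WT) below 0, as had 46.9% of all 16725 genes tested. At an adjusted p below 0.1, 4 members were lower in KO and 0 were higher, against a background of 2.67% of all genes tested called lower and 1.32% called higher. The 4 were Alad and Uros, enzymes of the cytosolic part of heme synthesis, Slc25a38, the mitochondrial carrier that brings in glycine for heme, and Epor, the erythropoietin receptor. By edgeR 0 of the 17 terminal erythroid genes passed. At an unadjusted p below 0.05, 13 members were lower, 6 of them terminal, and 0 were higher, beside 10.2% of all genes lower. DESeq2 with the study's settings called 9 members lower, the same 4 with Klf1, Rhag, Car1, Urod and Cpox, against 3.86% of the genes it tested. Of these 9 members, 3 are terminal. DESeq2 gave no adjusted p for Epb42 and Slc4a1, so these genes could not be called by it. KO and WT libraries did not separate without overlap for any of the 32 members, a pattern that 6.36% of all genes tested showed. Without WT 15418, 0 members were called by edgeR, while 2.41% of the 16616 genes tested were called lower. In that fit 9 members and 3284 of all genes had an unadjusted p below 0.05, in either direction. The log2 fold change was below 0 for 20 members, beside 43.2% of all genes, and above 0 for 12 members. The count of members called was also 0 without KO 15405, KO 15406, KO 15411, KO 15412, KO 15415 or WT 15416. In those fits at most 1 of all genes passed. The count was 2 without KO 15409, where 1003 of all genes were called in either direction. It was 10 without WT 15420, where 2.71% of all genes were called lower.

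The median log2 fold change was -1.48 over the 17 terminal genes, -1.39 over the 6 heme enzymes and -1.0 over the 9 shared genes, beside 0.06 over all genes tested. The terminal and heme medians thus differed by -0.09, less than the spread of that difference between libraries of a group (SD 0.546 on the log2 scale). Without WT 15418 the terminal median was -0.23 and the heme median -0.78, and their difference was 0.55, of the opposite sign.

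**Figure D1:**
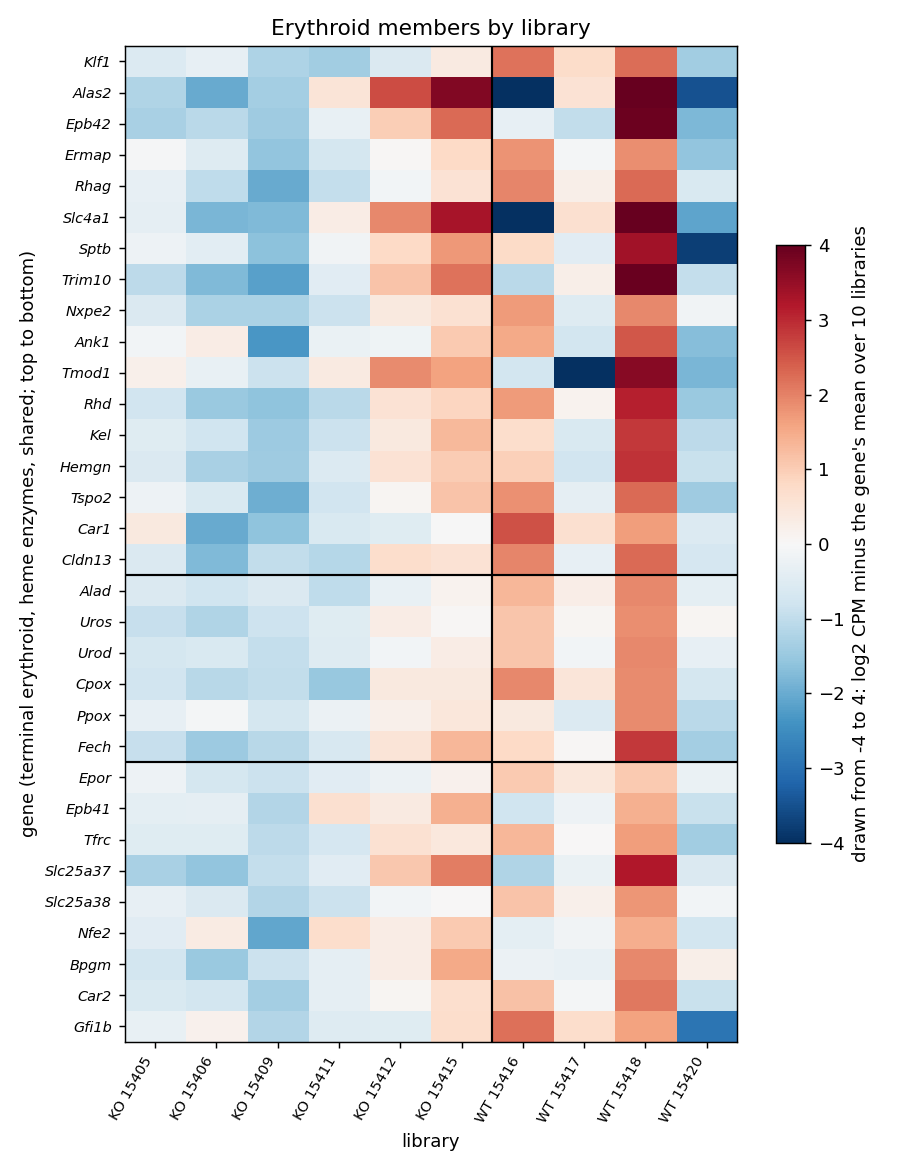
Level of each of the 32 members in each of the 10 libraries, as log2 CPM minus the gene's mean over libraries (colour, drawn from -4 to 4 with larger differences at the end colours). Rows run from terminal erythroid genes through heme enzymes to shared genes; WT 15418 is the highest library for 29 members, and WT 15416 is high for Klf1, Rhag and Gfi1b but lowest for Alas2 and Slc4a1.

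Promoter sequences are shown for the 4 members that passed and for Klf1 and Alas2, whose patterns over the libraries are compared further on. RefSeq windows, from 250 bases before to 50 bases after a start site on GRCm38.p6, were matched for 24 of the 32 members (29 windows). Each was searched on both strands for AGATAA or TGATAA, the letters bound by GATA factors, for CCACACCC or CCNCACCC (the CACC box bound by Klf1-type factors; the second includes the first) and for CAGNTG, the E-box. The 250 bases before the start are printed 5′ to 3′ on the strand of the gene, in lower case, with GATA and CACC box letters in capitals. A match describes these letters and is not a measured binding site.

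The Alad window lies at chr4:62519910-62520159 on the minus strand, overlaps the annotated start of the gene and holds neither set of letters, nor does a second Alad window at chr4:62520064-62520313.
Alad: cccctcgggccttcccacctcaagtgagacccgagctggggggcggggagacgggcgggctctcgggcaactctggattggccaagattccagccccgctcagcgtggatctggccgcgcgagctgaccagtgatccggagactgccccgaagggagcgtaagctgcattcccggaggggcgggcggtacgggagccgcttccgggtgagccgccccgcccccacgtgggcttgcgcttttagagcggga
The Uros window with a GATA match, TTATCA on the printed strand, lies at chr7:133702501-133702750 on the minus strand. A second Uros window, at chr7:133709296-133709545, has none, and both lie inside the annotated gene.
Uros: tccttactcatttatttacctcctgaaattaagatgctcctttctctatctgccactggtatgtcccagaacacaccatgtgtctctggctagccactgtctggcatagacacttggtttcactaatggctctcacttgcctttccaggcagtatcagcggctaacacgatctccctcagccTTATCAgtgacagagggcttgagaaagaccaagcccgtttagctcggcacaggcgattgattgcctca
The Slc25a38 window lies at chr9:120110132-120110381 on the plus strand, overlaps the annotated start of the gene and holds neither set of letters.
Slc25a38: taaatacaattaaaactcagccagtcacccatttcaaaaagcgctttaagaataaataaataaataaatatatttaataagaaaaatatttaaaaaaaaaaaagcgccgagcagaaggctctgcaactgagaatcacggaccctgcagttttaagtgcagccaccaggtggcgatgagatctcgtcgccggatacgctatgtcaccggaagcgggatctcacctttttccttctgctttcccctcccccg
The Epor window lies at chr9:21963577-21963826 on the minus strand and holds a CACC box and a GATA match.
Epor: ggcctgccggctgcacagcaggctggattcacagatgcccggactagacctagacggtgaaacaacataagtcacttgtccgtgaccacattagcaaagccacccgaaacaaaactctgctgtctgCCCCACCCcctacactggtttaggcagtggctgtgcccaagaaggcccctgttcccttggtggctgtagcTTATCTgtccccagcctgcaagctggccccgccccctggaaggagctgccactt
The Klf1 window lies at chr8:84901732-84901981 on the plus strand, overlaps the annotated start of the gene and holds a GATA match before that start.
Klf1: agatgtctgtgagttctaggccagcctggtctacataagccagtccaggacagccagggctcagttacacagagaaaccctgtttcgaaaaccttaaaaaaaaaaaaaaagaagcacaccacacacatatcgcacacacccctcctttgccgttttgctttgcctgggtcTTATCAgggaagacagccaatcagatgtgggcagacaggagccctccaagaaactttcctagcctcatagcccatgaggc
The Alas2 window lies at chrX:150547167-150547416 on the plus strand and overlaps the annotated start of the gene. It holds a GATA match before that start and 2 overlapping CACC boxes past it.
Alas2: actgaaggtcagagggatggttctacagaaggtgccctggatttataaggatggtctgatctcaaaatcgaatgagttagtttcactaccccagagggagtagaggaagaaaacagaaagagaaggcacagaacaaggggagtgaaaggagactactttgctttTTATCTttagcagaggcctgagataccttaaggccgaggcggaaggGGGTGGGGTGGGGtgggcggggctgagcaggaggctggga

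Over the full windows of 250 and 50 bases, 9 of 13 terminal genes (69.2%) held a GATA match, against 2 of 5 heme enzymes (40.0%), 2 of 6 shared genes (33.3%) and 21.0% of the 27025 genes with a RefSeq window. The terminal genes with the match were Klf1, Alas2, Epb42, Ermap, Rhag, Rhd, Kel, Hemgn and Trim10, and those without were Nxpe2, Sptb, Tmod1 and Tspo2. CACC box letters were in 2 terminal genes (15.4%), 0 heme enzymes and 2 shared genes (33.3%), beside 18.4% of all genes. E-box letters were in 46.2% of terminal genes, 1 of 5 heme enzymes and 66.7% of shared genes, and in 54.6% of all genes.

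Among the regulators, Klf1, the Krüppel-like factor that switches on red cell genes, spanned chr8:84901928-84905291 on the plus strand (all positions are on GRCm38). Klf1 was at 747, 276, 777 and 62.7 CPM in WT 15416, 15417, 15418 and 15420, and in KO it was lowest at 63.6, with a median of 113 and a highest value of 211 CPM. Above every KO library lay 3 WT libraries, while WT 15420 lay below every KO library. The log2 fold change was -1.99 ± 0.56 (SE) with an adjusted p of 0.101, which missed the threshold. Of 23 alternatives with a value, 8 called it, with adjusted p from 0.0114 to 0.259, and its fold change stayed between -3.04 and -1.57.

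Gfi1b, a repressor needed for red cell and platelet development (chr2:28609450-28621982, minus strand), was at 351, 124, 233 and 10.2 CPM in the same WT libraries and at 34.0 to 126 CPM (median 59.0) in KO. The WT value of 10.2 CPM, from 72 counts, was the lowest of all 10 libraries. Its log2 fold change of -1.36 ± 0.66 did not pass (adjusted p = 0.291). Hemgn, a nuclear protein of blood progenitors and erythroblasts (chr4:46393989-46413506, minus strand), was at 45.7 to 630 CPM in WT and 31.6 to 171 CPM in KO, with a log2 fold change of -1.48 ± 0.75. Nfe2, a factor of late erythroblasts and megakaryocytes (chr15:103248212-103258403, minus strand), was at 87.2 to 398 CPM in WT and 34.4 to 301 CPM in KO, with a log2 fold change of -0.07 ± 0.55. The groups overlapped in both genes, and without WT 15418 the log2 fold changes were -0.05 for Hemgn and 0.69 for Nfe2.

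The erythropoietin receptor carries the signal that keeps erythroid progenitors alive. Epor (chr9:21958897-21963506, minus strand; its window is printed above) was at 160, 106, 163 and 65.4 CPM in WT 15416, 15417, 15418 and 15420. In KO it was lowest at 43.4, with a median of 61.5 and a highest value of 88.8 CPM. Again 3 WT libraries lay above every KO library, and WT 15420 lay among them. Epor was lower in KO by a log2 fold change of -1.0 ± 0.28 (adjusted p = 0.0937), and was the steadiest of the 32 members, since its highest library held 3.76 times its lowest. Its call was kept in 9 of 23 alternatives, and without WT 15418 the log2 fold change was -0.79 (adjusted p = 0.179, within 0.0262 to 0.257 over the alternatives).

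Tfrc, the transferrin receptor through which cells take up iron (chr16:32608920-32632794, plus strand), was at 291, 116, 368 and 44.4 CPM in WT and at 56.3 to 175 CPM (median 82.7) in KO. Its log2 fold change was -0.97 ± 0.51 (adjusted p = 0.332), and -0.47 without WT 15418. Slc25a37, mitoferrin, carries the iron into the mitochondrion (chr14:69241848-69285112, minus strand). Its level was 62.0, 118, 1319 and 96.4 CPM in WT and 48 to 584 CPM (median 88.6) in KO. The WT value of 1319 CPM belongs to WT 15418, and without it the log2 fold change moved from -1.03 ± 1.01 to 1.12.

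In heme synthesis, the first enzyme specific to erythroblasts was the most uneven. Alas2 (chrX:150547375-150570638, plus strand) was at 2.81, 84.0, 1808 and 5.10 CPM in WT, and in KO it was lowest at 14.1, with a median of 52.6 and a highest value of 746 CPM. Both the lowest and the highest of all 10 libraries were WT, 645-fold apart. The log2 fold change of -1.21 ± 1.64 did not pass (adjusted p = 0.748) and was 2.76 without WT 15418. In TPM, a level per transcript length scaled to the library, Alas2 made up 27.1%, 11.8%, 28%, 55.2%, 85.0% and 90.4% of the summed Alas1 and Alas2 level in KO 15405, 15406, 15409, 15411, 15412 and 15415. In WT 15416, 15417, 15418 and 15420 it made up 3.25%, 46.4%, 93.3% and 8.14%. The erythroid form thus far exceeded the general form in KO 15412, KO 15415 and WT 15418, was close to it in KO 15411 and WT 15417, and was below it in the rest. In the Gencode release used here for positions, later than the authors', Alas2 shares 12.9% of its exonic bases with Apex2 on the opposite strand. The counts do not use strand.

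**Figure D2:**
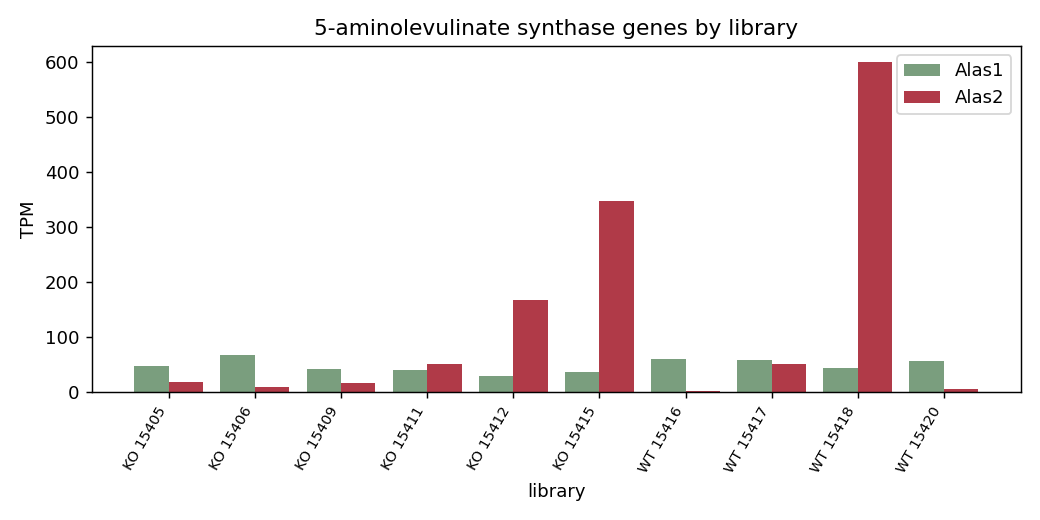
TPM (vertical axis, linear from 0) of Alas1 and Alas2 in each library. Alas1 lies between 29.5 and 67.4 TPM throughout, while Alas2 runs from 2.00 TPM in WT 15416 to 599 TPM in WT 15418.

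The enzymes after the first step were steadier. Alad, which joins aminolevulinate molecules into a pyrrole (chr4:62509169-62519918, minus strand), was at 741, 360, 1134 and 224 CPM in WT 15416, 15417, 15418 and 15420. In KO its lowest value was 147, its median 200 and its highest 326 CPM. All but 1 WT library lay above every KO library, and WT 15420 lay above 4 KO libraries. Alad was lower in KO by a log2 fold change of -1.52 ± 0.38 (adjusted p = 0.0836), a call made in 13 of 23 alternatives. Without WT 15418 it was -0.99 (adjusted p = 0.150, within 0.00915 to 0.257 over the alternatives).

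Uros closes the porphyrin ring (chr7:133686243-133710072, minus strand). Its level was 115, 56.9, 192 and 56.5 CPM in WT 15416, 15417, 15418 and 15420, and in KO it was lowest at 23.1, with a median of 33.9 and a highest value of 65.8 CPM. Below the lowest WT library lay 5 of 6 KO libraries, and KO 15412 lay above 2 WT libraries. Uros was lower in KO by -1.40 ± 0.39 on the log2 scale (adjusted p = 0.0953), a call made in 10 of 23 alternatives. Without WT 15418 its log2 fold change was -0.87 (adjusted p = 0.212, within 0.0203 to 0.257 over the alternatives).

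Slc25a38 (chr9:120110374-120124504, plus strand) was at 125, 66.5, 196 and 52.8 CPM in WT 15416, 15417, 15418 and 15420. In KO it was lowest at 25.3, with a median of 42.2 and a highest value of 58.2 CPM. Of the KO libraries, only KO 15412 and KO 15415 reached the lowest WT library. Slc25a38 was lower in KO by -1.39 ± 0.36 on the log2 scale (adjusted p = 0.0836), a call made in 13 of 23 alternatives. Without WT 15418 it was -0.90 (adjusted p = 0.167, within 0.0121 to 0.257 over the alternatives).

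**Figure D3:**
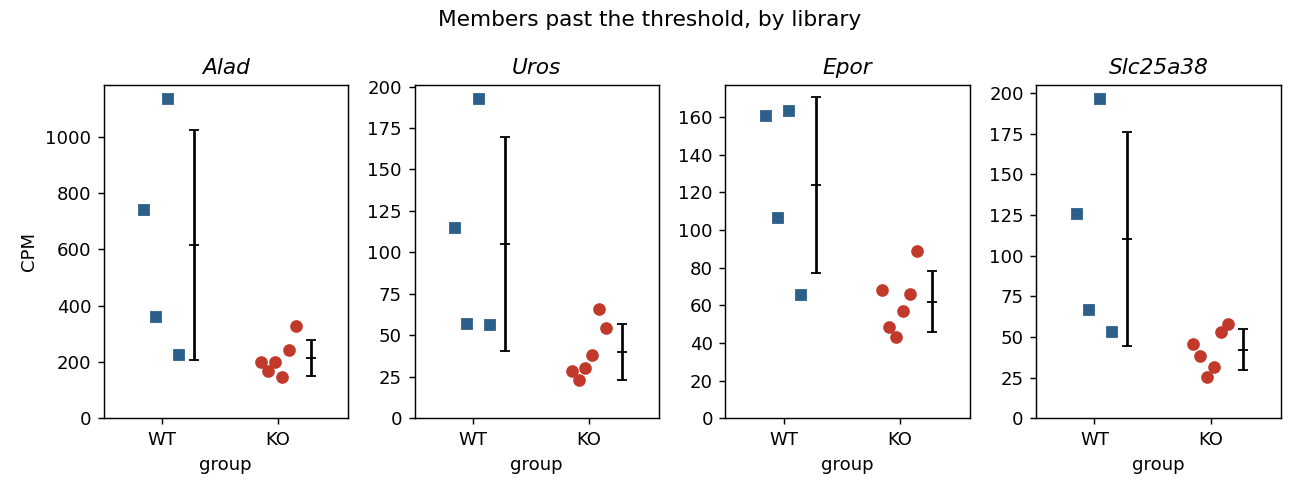
CPM (linear from 0) of the 4 members with an adjusted p below 0.1, 1 point for each library, 4 WT (squares) and 6 KO (circles). The bar gives the mean ± SD of each group; for each gene 2 or 3 WT libraries lie above every KO library and the others lie among them.

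The remaining enzymes did not pass. Urod, which makes coproporphyrinogen (chr4:116989965-116994413, minus strand), was at 605, 262, 1056 and 224 CPM in WT and 146 to 346 CPM in KO, with a log2 fold change of -1.30 ± 0.40 (adjusted p = 0.118) that was -0.68 without WT 15418. Cpox, the oxidase that follows it (chr16:58670292-58717636, plus strand), was at 324, 121, 322 and 53.2 CPM in WT and 29.9 to 112 CPM in KO, with a log2 fold change of -1.66 ± 0.52 (adjusted p = 0.126). For Urod 2 WT libraries and for Cpox 3 lay above every KO library, and the rest lay inside the KO range. Ppox, the next oxidase (chr1:171275990-171281186, minus strand), was at 45.4 to 357 CPM in WT and 58.7 to 130 CPM in KO, with a log2 fold change of -0.70 ± 0.48 that was 0.26 without WT 15418. Ferrochelatase, Fech (chr18:64452914-64490251, minus strand), was at 338, 199, 1397 and 75.6 CPM in WT and 71.4 to 486 CPM in KO, and its log2 fold change of -1.39 ± 0.77 was -0.04 without WT 15418. Ppox shares 17.5% of its exonic bases with B4galt3 on the opposite strand.

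The heme enzymes differed widely in level per length. Among the 32 members Car2 led with a median of 499.8 TPM over the 10 libraries, followed by Alad at 203 and Urod at 193 TPM. Alad and Urod did not differ beyond their spread over libraries, which was 150 to 598 and 139 to 538 TPM. Klf1 came next at 103 TPM, Fech was at 59.5, Ppox at 45.5, Uros at 34.0 and Cpox at 25.01 TPM, and Ank1 and Tmod1 were last at 4.25 and 3.42 TPM. The summed TPM of the 17 terminal genes was 0.562 to 1.66 times that of the 6 heme enzymes in WT and 0.563 to 1.73 times in KO. By library it was highest in KO 15415 and WT 15418 and lowest in KO 15409 and WT 15420.

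Among the membrane genes, Slc4a1, the anion exchanger that is the most abundant protein of the red cell membrane (chr11:102348824-102366203, minus strand), was at 2.12, 106, 2063 and 15.7 CPM in WT 15416, 15417, 15418 and 15420. In KO it was lowest at 19.0, with a median of 68.2 and a highest value of 670 CPM. As with Alas2, the lowest and highest libraries were both WT. The log2 fold change of -1.57 ± 1.55 did not pass (adjusted p = 0.635) and was 2.16 without WT 15418. Epb42, which binds the exchanger to the skeleton (chr2:121017891-121037072, minus strand), was at 6.23 to 328 CPM in WT and 8.01 to 104 CPM in KO, with a log2 fold change of -1.50 ± 1.17. It too changed sign without WT 15418, to 1.53.

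Genes of the spectrin skeleton also ranged widely in WT. Sptb, beta spectrin (chr12:76580488-76710547, minus strand), was at 89.3, 38.8, 542 and 3.82 CPM in WT and 16.7 to 173 CPM in KO. Ank1, the ankyrin that links spectrin to the exchanger (chr8:22974844-23150497, plus strand), was at 46.9, 9.94, 91.6 and 5.10 CPM in WT and 3.30 to 34.3 CPM in KO. Tmod1, which caps the actin filaments of the skeleton (chr4:46038935-46116032, plus strand), was at 5.16, 0.532, 108 and 2.41 CPM in WT and 4.77 to 31.7 CPM in KO. All 6 KO libraries lay above the WT median for Tmod1, whose WT 15417 value rests on 6 counts and whose exons share 32.6% of their bases with Tstd2 on the opposite strand. Log2 fold changes were -1.29 ± 1.02 for Sptb, -1.19 ± 0.73 for Ank1 and -0.94 ± 1.12 for Tmod1, and without WT 15418 they were 0.70, -0.23 and 2.54. Epb41, which ties spectrin to actin in many cell types (chr4:131923413-132075321, minus strand), was the only member with a fold change above 0, at 0.09 ± 0.55, with 58.7 to 295 CPM in WT and 48.8 to 292 CPM in KO; it was 0.95 without WT 15418, and the sign turned in 7 alternatives.

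The Rh and blood group proteins lie in the red cell membrane. Rhag, which carries the Rh complex to the membrane (chr17:40811126-40840754, plus strand), was at 248, 74.5, 310 and 42.2 CPM in WT 15416, 15417, 15418 and 15420. In KO it was lowest at 15.6, with a median of 42.3 and a highest value of 95.6 CPM. WT 15416 and WT 15418 lay above every KO library and the other WT libraries lay among them. Its log2 fold change was -1.82 ± 0.57 (adjusted p = 0.127), and -1.29 without WT 15418. Rhd, its partner in the complex (chr4:134864536-134896172, plus strand), was at 371, 126, 989 and 40.2 CPM in WT and 37.5 to 208 CPM in KO, with a log2 fold change of -1.99 ± 0.79 (adjusted p = 0.209) that was -0.84 without WT 15418.

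Ermap, the erythroid membrane protein that carries the Scianna antigens (chr4:119175457-119190011, minus strand), was at 36.2 to 387 CPM in WT and 35.6 to 185 CPM in KO, with a log2 fold change of -1.22 ± 0.59. Kel, the Kell blood group peptidase (chr6:41686330-41704339, minus strand), was at 25.2 to 367 CPM in WT and 19.1 to 129 CPM in KO, with a log2 fold change of -1.29 ± 0.75 that was 0.17 without WT 15418. Cldn13, a claudin found in mouse erythroblasts (chr5:134914249-134915526, minus strand), was at 29.9 to 226 CPM in WT and 13.9 to 76.3 CPM in KO, with a log2 fold change of -1.59 ± 0.63. None of the 3 passed, the groups overlapped in each, and without WT 15418 Ermap was at -0.75 and Cldn13 at -1.01.

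Of the cytosolic and other members, Car1 and Car2 encode carbonic anhydrases, which speed the exchange of carbon dioxide and bicarbonate. Car1 (chr3:14766216-14808368, minus strand) was at 30.4, 8.07, 16.4 and 3.54 CPM in WT and 1.26 to 6.82 CPM (median 3.54) in KO. Above every KO library lay 3 WT libraries, and the log2 fold change was -1.99 ± 0.61 (adjusted p = 0.118), or -1.87 without WT 15418. Car2 (chr3:14886273-14900770, plus strand) was at 1889, 799, 3602 and 456 CPM in WT and 329 to 1343 CPM (median 601) in KO, with a log2 fold change of -1.25 ± 0.52 (adjusted p = 0.224) that was -0.51 without WT 15418. Car1 made up 0.293% to 2.09% of the summed TPM of both genes over the 10 libraries.

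Bpgm, which makes the bisphosphoglycerate that lowers the oxygen affinity of hemoglobin (chr6:34476207-34505613, plus strand), was at 53.5 to 248 CPM in WT and 23.6 to 189 CPM in KO. Its log2 fold change of -0.63 ± 0.61 was 0.22 without WT 15418. Trim10, a tripartite motif protein of erythroblasts (chr17:36869574-36877833, plus strand), was at 17.3, 42.4, 562 and 18.5 CPM in WT and 8.12 to 162 CPM in KO, and its log2 fold change of -1.65 ± 1.16 was 1.0 without WT 15418. Tspo2, the erythroid relative of the translocator protein Tspo (chr17:48447907-48451522, minus strand), was at 16.1 to 204 CPM in WT and 11.2 to 94.2 CPM in KO, with a log2 fold change of -1.34 ± 0.68. Nxpe2 (chr9:48318006-48353454, minus strand) was at 165, 35.3, 191 and 45.3 CPM in WT and 20.7 to 75.7 CPM in KO, with a log2 fold change of -1.42 ± 0.53 (adjusted p = 0.185). These 4 genes overlapped between the groups and did not pass, and without WT 15418 Tspo2 was at -0.68 and Nxpe2 at -0.94.

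**Figure D4:**
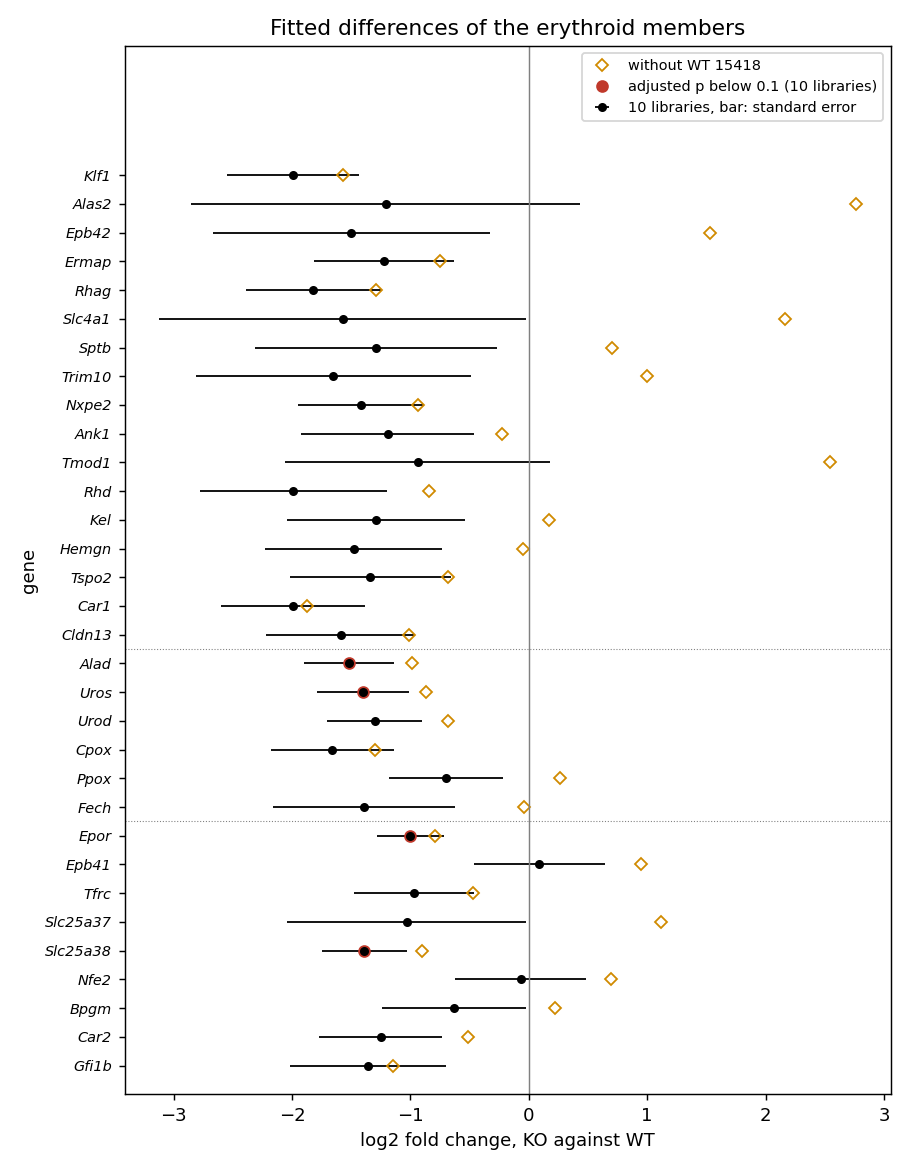
Fitted log2 fold change of KO against WT for the 32 members over all 10 libraries (filled points, bars show the standard error) and without WT 15418 (open diamonds), with dotted lines between terminal, heme and shared genes. The 4 members with an adjusted p below 0.1 are drawn as larger red points. On the other side of 0 from their filled point lie 11 open diamonds, including Alas2 at 2.76 and Slc4a1 at 2.16.

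The members differed in how their levels ran over the 10 libraries. With the summed globin level, 7 members had a Pearson r over 0.8 on the log2 scale (Alas2, Slc4a1, Slc25a37, Trim10, Epb41, Epb42 and Bpgm), and with Klf1, 16 others did, among them Alad, Slc25a38, Epor, Rhag, Cpox, Urod and Gfi1b. No member was over 0.8 with both and 8 were over it with neither. All these values share the libraries and their depth, and they are given as descriptions. The split was plainest in 2 WT libraries. WT 15416 had the lowest globin share of all 10 libraries and the lowest Alas2 and Slc4a1, but ranked first or second for 18 members, Klf1, Ermap and Rhag included. WT 15418, with the highest globin share, held 645 times the Alas2 and 971 times the Slc4a1 of WT 15416, but 1.04 times its Klf1 and 1.05 times its Ermap.

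For Slc4a1, r with the globin sum was 0.959 and Spearman's rho 0.915 over the 10 libraries. Without WT 15418 and KO 15415, the libraries farthest from the median globin level, r was 0.899, and within the 6 KO libraries it was 0.963. For Klf1, r was 0.285 and rho 0.164, r without those libraries was -0.284 and r within KO was 0.421. These 2 genes were chosen after their values were seen, as the ends of this pattern, so no test is given.

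**Figure D5:**
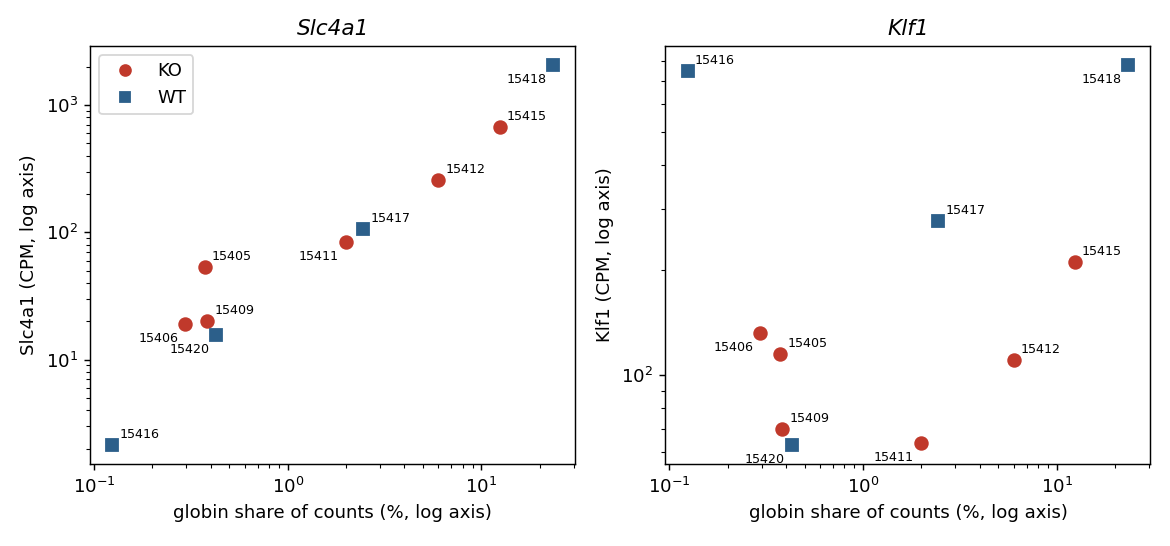
CPM of Slc4a1 (left) and Klf1 (right) against the share of counts on globin genes in each library, on log axes, with KO as circles and WT as squares. Slc4a1 runs along the globin share from WT 15416 (0.124%, 2.12 CPM) to WT 15418 (23.5%, 2063 CPM), whereas Klf1 is at 747 and 777 CPM at those 2 ends.

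With the globin level as a covariate in the edgeR fit, an alternative chosen after seeing the data, 8 members were called lower, against 2.66% of all genes. They were the same 4 with Klf1, Rhag, Urod and Cpox, and the log2 fold changes of Alas2, Slc4a1 and Tmod1 were then 0.80, 0.62 and 0.10. When the 3 libraries with over 5% globin counts (KO 15412, KO 15415 and WT 15418) were left out instead, the 4 KO and 3 WT libraries that remained gave 0 calls by edgeR among the members and among all genes (14 and 2798 at an unadjusted p below 0.05), and 25 members were below 0.

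Genes of the same pathways outside the 33 were read from fixed lists. Of 15 genes of heme synthesis, transport and breakdown, 15 had a log2 fold change below 0 (median -0.81) and 3 passed, all lower. Alas1, the general first enzyme, was at 117, 88.6, 118 and 99.6 CPM in WT and at 53.8 to 64.7 CPM in KO, without overlap, and was lower by -0.81 ± 0.16 on the log2 scale (adjusted p = 0.0824). The scale matters for this gene, since its TPM overlapped, at 43.2 to 59.6 in WT and 29.5 to 67.4 in KO. Blvra, a biliverdin reductase that acts after heme is broken down, was lower by -0.96 ± 0.20, and Abcb6, a porphyrin transporter, by -1.21 ± 0.30, both at an adjusted p of 0.0824 and without overlap. Without WT 15418, Alas1 and Blvra still passed (adjusted p = 0.0894 for both) and Abcb6 did not (0.145); over the alternatives adjusted p ran from 0.000116 to 0.257 for Alas1, 0.0014 to 0.257 for Blvra and 0.00999 to 0.257 for Abcb6.

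Of 16 genes of iron transport, storage and iron-sulfur clusters, 15 were below 0 (median -0.58) and 4 passed, all lower. Glrx5, a glutaredoxin of iron-sulfur cluster assembly, was at 344, 172, 433 and 134 CPM in WT and at 40.3 to 117 CPM in KO, without overlap, with a log2 fold change of -2.01 ± 0.37 (adjusted p = 0.0824). Iscu, the scaffold of that assembly, was lower by -0.56 ± 0.15, Slc11a2, an iron importer, by -1.24 ± 0.32 and Slc40a1, the iron exporter ferroportin, by -1.18 ± 0.33. Without WT 15418, Glrx5 passed (adjusted p = 0.0872, within 0.000334 to 0.257 over the alternatives) and the other 3 did not.

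Of 18 further membrane and skeleton genes, 14 were below 0 (median -0.51), with 1 called in each direction. Icam4, a red cell adhesion protein, was lower by -1.99 ± 0.54 (adjusted p = 0.0935), and Tmod3, the tropomodulin of many other cells, was higher by 0.74 ± 0.19 (adjusted p = 0.0836), at 131 to 198 CPM in KO and 84.6 to 118 CPM in WT. Without WT 15418 their log2 fold changes were -1.37 and 0.75 and neither passed (edgeR adjusted p = 0.184 and adjusted p = 0.109, within 0.0105 to 0.257 and 0.00579 to 0.301 over the alternatives). Of 12 genes of late maturation 0 passed by edgeR or DESeq2 (median -0.50; 3 lower and 1 higher at an unadjusted p below 0.05), and the 2 with the highest mean level, Bnip3l and Bcl2l1, which act in mitochondrial clearance and cell survival, were at -0.46 ± 0.19 and -0.50 ± 0.63, and at -0.26 and 0.61 without WT 15418. Of 14 nuclear factors 0 passed by either tool (median -0.26, with 2 lower at an unadjusted p below 0.05); Lmo2 and Gata1, partners in the erythroid factor complex, were at -0.54 ± 0.34 and -1.35 ± 0.62.

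Among the 10665 other genes with a mean of at least 5 CPM, those whose log2 CPM ran most like the summed level of the 17 terminal genes over the 10 libraries included Yod1, Slc16a10, Tspan33, Mgst3 and Cd24a, with Pearson r from 0.959 to 0.977. Mgst3, a microsomal glutathione transferase, was at 77.6 to 841 CPM in WT and 58.5 to 214 CPM in KO, with a log2 fold change of -1.46 (adjusted p = 0.254 by edgeR) that was -0.04 without WT 15418. Without that library Yod1 was at -0.15, Slc16a10 at 0.18, Tspan33 at -0.77 and Cd24a at 0.05. None of these genes passed.

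Markers of other cell types were read in the same libraries. The 7 globin genes tested had a median log2 fold change of -1.37, and 0 were called by edgeR or DESeq2 or had an unadjusted p below 0.05. DESeq2 gave no adjusted p for Hbb-y. The 12 LT-HSC markers had a median of 1.39, with 10 above 0 and 4 called higher. The 12 megakaryocyte and 12 hepatoblast markers were all above 0 (medians 0.97 and 0.78) with 0 called by either tool (2 and 0 at an unadjusted p below 0.05), and their summed levels overlapped, at 374 to 4743 against 387 to 1777 CPM for megakaryocytes and 99.4 to 9476 against 275 to 6467 CPM for hepatoblasts (KO against WT). The 15 macrophage markers had a median of -1.15, with 13 below 0 and 3 lower at an unadjusted p below 0.05 by edgeR. They summed to 271 to 1050 CPM in KO and 190 to 904 CPM in WT. A few markers carried the highest sum: in KO 15409, Mrc1, Vcam1 and Hmox1 were at 714.5, 155.4 and 93.6 CPM. The sum therefore says little about the low markers. Among these, Adgre1, C1qa and C1qc had means of 2.58, 1.65 and 4.34 CPM in KO. In WT their means were 11.03, 6.92 and 15.45 CPM, and the groups overlapped. Mrc1, 1 of the 2 above 0, had the highest mean of the 15, 329 CPM in KO and 283 CPM in WT. In at least 1 library 4 of the 15 were at 0. Slc40a1 and Marco were called lower among the 15 markers. Marco, a scavenger receptor, had 0 counts in all KO libraries against 3.41 to 14.3 CPM in WT. It was at least 254-fold lower at a floor of 3 counts over the KO group. The part of these cell types in the levels of the erythroid genes was not tested.

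Estimates for single transcripts were read for the members as well. In 18 members 1 annotated transcript held at least 80% of the gene's estimated counts as a mean over the 10 libraries. Single libraries could differ: Car1-203 had a mean of 83.2%, but in WT 15420 Car1-201 held 100%. A single transcript is annotated for 6 members. In Uros, the coding transcript Uros-204 took 51.1% ± 6.70 (SD, n = 6) of the estimates in KO and 63.3% ± 12.0 (SD, n = 4) in WT. A Uros transcript annotated as retaining an intron, Uros-206, took 25.1% ± 5.72 in KO and 12.3% ± 9.08 in WT. In Ppox, the intron-retaining Ppox-207 took 21.1% ± 6.25 in KO and 9.31% ± 6.45 in WT. Another intron-retaining transcript of that gene, Ppox-206, took 21.5% ± 3.95 in KO and 25.2% ± 13.7 in WT. The intron-retaining Tfrc-204 took 53.7% ± 11.2 in KO and 74.3% ± 20.1 in WT. Ank1-212, Slc25a37-203 and Tspo2-202, which also retain an intron, had higher mean shares in KO. Intron-retaining transcripts thus went in both directions. WT 15420 held extreme shares, with 98.9% for Tfrc-204 and 0% for Uros-206. The higher WT mean of Ppox-206 rests on that library, at 45.5% against 15.8% to 20.3% in the other WT libraries. These shares were chosen after their values were seen and were not tested.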

How the data were processed

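LT-HSCs were sorted from fetal livers of littermate embryos, and their RNA was amplified by SmartSeq2, a full-length method without molecular identifiers or strand marking, so counting limits cover counting error only. Per the study's methods and the submitters' processing notes, the authors made single-end reads with bcl2fastq 2.20 and pseudoaligned them with kallisto 0.44.0 to Gencode vM16 (GRCm38, mm10). The deposited transcript tables hold estimated counts and TPM, which the authors scaled by transcript length and library size. The deposited gene table holds those estimated counts summed by symbol and rounded to whole numbers, and 97.5% of its values lie within 1 count of the sums made here. The sums made here, gene positions, exon overlaps and transcript types used a later Gencode release than vM16, on GRCm38.

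Genes whose counts over all libraries came to 11 or more were tested between KO (6 libraries) and WT (4 libraries) with edgeR 4.0.16 in R 4.3.3 (TMM, glmQLFit with robust estimation, glmQLFTest), with Benjamini-Hochberg adjustment over all genes and the study's threshold of 0.1. CPM used TMM library sizes. A standard error is the log2 fold change divided by the root of its F statistic. DESeq2 1.42.0 with the study's log2 fold-change threshold of 0.1 was an alternative, beside other normalizations and filters, a transcript-length offset, covariates for Xist and for genes detected, and each library left out. The 3 globin alternatives were chosen after seeing the data. Scripts were tested on simulated data. All 33 members are named; of the other lists, genes past the threshold, at most 4 by smallest p, or else the 2 of highest mean CPM, and the 6 genes most like the terminal sum, of which 1 is not reported here. The members and lists were chosen with earlier results of these data known. The groups come from the genotype labels; the labels do not say which samples share a litter, so p-values measure the spread between these samples. Figures were made with Python 3.11.15 and matplotlib 3.10.9.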

Additional observations from a re-analysis of the deposited data

Results flagged for a closer look

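In the 64 groups of libraries tested (32 members in KO and in WT), the CPM of 1 library stood far from the others in 13, for 10 genes. On the log2 scale the count was 0. The rule flags about 1 group in 20 for independent, normally spread values. The groups here share libraries and CPM is skewed, so that rate cannot measure an excess. In WT the far library was WT 15418 each time. There Alas2 was at 1808 CPM against 2.81 to 84.0 in the other WT libraries, Slc4a1 at 2063 against 2.12 to 106, Epb42 at 328 against 6.23 to 17.2, Sptb at 542 against 3.82 to 89.3 and Tmod1 at 108 against 0.532 to 5.16. Trim10 was at 562 CPM against 17.3 to 42.4, Slc25a37 at 1319 against 62.0 to 118, Epb41 at 295 against 58.7 to 95.7, Nfe2 at 398 against 87.2 to 134 and Bpgm at 248 against 53.5 to 76.4. In KO the far library was KO 15415, with Slc4a1 at 670 CPM against 19.0 to 256, Epb42 at 104 against 8.01 to 42.7 and Bpgm at 189 against 23.6 to 80.6. WT 15418 and KO 15415 have the highest globin shares of their groups, 23.5% and 12.4%; the part of other cells in these levels was not tested.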

How the results depend on the processing

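Members called higher stayed at 0 in every alternative. Members called lower were 4 in the edgeR fit, 9 by DESeq2 with the fold-change threshold, 12 by DESeq2 without it, 2 with upper-quartile normalization, 7 with the transcript-length offset, 2 with globin genes removed before normalization, 8 with the globin covariate, and 0 with the Xist covariate, with the genes-detected covariate, without the libraries over 5% globin counts or at an adjusted p below 0.05. Genes called in either direction over the whole table were 667 in the edgeR fit and, in the same order, 1136, 2143, 501, 508, 642, 684, 0, 1, 0 and 0, so the last 4 settings called at most 1 gene of any kind. The cause of the other shifts was not tested. With 1 library left out the count ran from 0 to 10. The terminal and heme medians were -3.08 and -2.41 with the genes-detected covariate, a difference of -0.66. At equal depth, 14595 (KO 15405) to 15454 (KO 15412) genes were detected in KO. In WT it was 13728 (WT 15420) to 14583 (WT 15416). The groups did not overlap in this covariate, so that fit cannot tell its part from that of genotype. Leaving out libraries moved the difference of the medians between -0.26 and 0.55.

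Signs turned as follows. Epb41 was at -0.34 with the length offset, -0.62 with Xist and -1.30 with genes detected, and ran from -0.28 to 0.95 with a library left out. Without the libraries over 5% globin counts, Alas2 was at 0.23, Epb42 0.01, Slc4a1 0.11, Tmod1 1.63, Ppox 0.01, Nfe2 0.38 and Bcl2l1 0.08, and with the globin covariate Alas2 was at 0.80, Slc4a1 0.62, Tmod1 0.10 and Nfe2 0.04. With 1 library left out, ranges were -2.28 to 2.76 for Alas2, -2.37 to 1.53 for Epb42, -2.66 to 2.16 for Slc4a1, -1.82 to 0.70 for Sptb, -2.49 to 1.0 for Trim10, -1.35 to 2.54 for Tmod1, -1.80 to 0.17 for Kel, -1.0 to 0.26 for Ppox, -1.77 to 1.12 for Slc25a37, -0.30 to 0.69 for Nfe2, -1.23 to 0.22 for Bpgm, -0.90 to 0.61 for Bcl2l1, -1.38 to 0.18 for Slc16a10 and -1.29 to 0.05 for Cd24a.

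Adjusted p-values of the calls lie between 0.0824 and the threshold of 0.1, so small shifts change them. Between the 4 WT libraries, the highest level was 2.49 times the lowest for Epor and 971 times for Slc4a1. Depth limits Tmod1 most, with 6 counts in WT 15417, the lowest count of a member. No paired analysis was possible because the labels do not say which samples share a litter.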
